A study of Mus musculus with 7 samples.

Results

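The cells described here are fibroblasts of the mouse trigeminal ganglion that carry transcripts of Slc4a10. They were found by counts alone in 1 single-cell library. Of 13065 deposited barcodes, 9427 had at least 1000 UMIs (unique molecular identifiers, each standing for a captured transcript), at least 500 genes and at most 20% mitochondrial UMIs. A total of 5483 of these passed a collagen gate, with Col1a1, Col1a2 and Col3a1 summing to at least 20 UMIs per 10000. Members also had Ccl11 under 5 per 10000, the bone genes Ibsp, Sp7 and Bglap together under 5 per 10000, and at least 2 Slc4a10 UMIs. This left 382 members, 6.97% of the collagen-gated barcodes (exact binomial 95% interval 6.31% to 7.67%) and 4.05% of all kept barcodes. The other 5101 collagen-gated barcodes served as the comparison.

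The ganglion library came from wild-type mice at postnatal day 3.5, and the sources used here do not give how many animals were pooled. The series also holds 6 bulk molar libraries at postnatal day 7.5 after tamoxifen, 3 from Fgfr2fl/fl controls and 3 from Gli1-CreER;Fgfr2fl/fl mutants, in which Cre follows the Gli1 gene; they were not analysed here. With 1 ganglion library there is no replicate and no test. All intervals are 95% intervals for counting error only.

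The trigeminal ganglion lies in a pouch of dura mater at the base of the skull, and its root is covered by the leptomeninges, the arachnoid and pia. Its nerve branches are wrapped by the epineurium, by the perineurium, whose cells form a diffusion barrier, and inside it by the endoneurium. Fibroblasts of these layers lay down collagen and elastic fibres, and some of them carry transporters that control what passes between blood, fluid and nerve. Slc4a10 encodes a sodium-dependent bicarbonate transporter known best from neurons and the choroid plexus.

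Promoter sequence is shown for the genes that define or lead the group, as far as the RefSeq table (build GRCm38.p6) lists them: 3 of 7 genes searched, Slc4a10, Ecrg4 and Fxyd5. Each window is the 250 bases before the first listed start, read 5′ to 3′ on the gene's strand. The table lists 2 windows for Slc4a10, so distances depend on the start taken. The windows of Slc4a10 and Fxyd5 reach into the genes as placed by the mouse annotation used below. Capitals mark TATAAA, the TATA box letters, on either strand. Slc4a10 (chr2:62046265-62046514, plus strand), Ecrg4 (chr1:43730352-43730601, plus strand) and Fxyd5 (chr7:31042332-31042581, minus strand) are in turn:
Slc4a10: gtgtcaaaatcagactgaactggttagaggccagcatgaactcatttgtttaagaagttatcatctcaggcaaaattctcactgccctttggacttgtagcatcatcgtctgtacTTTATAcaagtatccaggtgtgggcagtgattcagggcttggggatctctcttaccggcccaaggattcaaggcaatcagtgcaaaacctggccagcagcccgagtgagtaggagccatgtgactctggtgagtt
Ecrg4: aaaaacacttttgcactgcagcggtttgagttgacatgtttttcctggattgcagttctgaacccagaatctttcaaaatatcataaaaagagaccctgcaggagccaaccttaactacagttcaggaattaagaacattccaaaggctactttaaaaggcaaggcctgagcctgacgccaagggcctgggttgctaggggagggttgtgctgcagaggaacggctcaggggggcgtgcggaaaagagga
Fxyd5: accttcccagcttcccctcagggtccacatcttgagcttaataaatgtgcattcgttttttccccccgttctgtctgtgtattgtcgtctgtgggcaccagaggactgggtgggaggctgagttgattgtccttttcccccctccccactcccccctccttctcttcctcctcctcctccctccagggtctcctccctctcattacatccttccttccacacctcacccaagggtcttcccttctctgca
The Slc4a10 window held 1 TATAAA match, 135 bases before the start, and the windows of Ecrg4 and Fxyd5 held none, against 12.4% of 32851 listed windows with at least 1. No window of the 3 held TGTTTAC, a core sequence bound by forkhead factors (3.17% of all windows), or GGGCGG, the GC box (32.7%), on either strand. The windows held 3, 5 and 3 CpG pairs in that order, with a median of 6 over all windows. These are matches of letters in short windows and say nothing about binding.

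Before any comparison, the collagen gate proved loose. In 3531 of the 5101 other barcodes (69.2%), 11 genes of Schwann cells and satellite glia summed to at least 20 UMIs per 10000, and the same held for 42 members (11%). In 13 members, 7 neuron genes passed that level. These 13 had a median of 131426 UMIs, against 15901.5 over all members, and carried 20.3% of the members' UMIs. Doublets were not removed from the members; leaving out the 8% of kept barcodes with the highest doublet scores would take out 46 of them. In all, 52 members and 3691 others passed 20 per 10000 for neuron, glia, macrophage, endothelium or mural genes. Leaving them out gave 330 members with 5108860 UMIs (median 15247.5 per barcode) and 1410 others with 22290867 UMIs (median 14364.5). Unless stated otherwise, levels below are CPM, the UMIs of a gene per 1000000 UMIs, summed over these 330 and 1410 barcodes, and folds are ratios of these levels. The comparison first planned was that of all 382 members with all 5101 others, and leaving barcodes out was chosen after seeing the data. Of the genes named below, Dcn, Pdgfra, Ptgds and Gli1 are called lower, and Ndrg1 and Cdh1 higher, only after it (ratios of 0.529, 0.639, 1.05, 0.811, 1.00 and 1.02 before). Foxc1, Twist1, Igf1, Bgn and Cxadr were higher, and Mki67, Top2a and Birc5 lower, only before barcodes were left out (3.60, 2.79, 3.45, 2.98, 2.25, 0.346, 0.331 and 0.352). Of 137 genes named here outside the rule, 89 had ratios that moved by over 1.5 times between both comparisons and 15 by over 3 times, and none was called in opposite directions. The planned ratios of Mfap4, Foxp2 and Prdm6 were 21.6, 13.4 and 25.3. In the planned comparison Apod was 17.9-fold lower, Spp1 18.0-fold, Col2a1 14.8-fold, Col22a1 21.1-fold, Col11a2 21.8-fold, Thbs4 12.6-fold, Plxdc1 8.70-fold, Slc6a20a 7.25-fold, Dlx5 29.2-fold, Etv4 4.78-fold and Etv5 2.31-fold lower. Sbspon, C1ql3 and Pou3f2 were 12.1-, 10.2- and 11.1-fold lower there, against 3.83-, 2.67- and 2.09-fold without barcodes of other classes. Globin genes, the content of red blood cells, reached 20 per 10000 in 106 of the 330 members (32.1%) and 472 of the 1410 others (33.5%). Among these 1410 others, 574 had at least 2 UMIs of Slc6a13, a transporter gene of leptomeningeal fibroblasts.

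A gene counted as higher or lower when both sides together held 20 UMIs or more, its levels differed at least 2-fold and its interval lay on that side of 1. By this criterion 1489 of 15653 genes were higher in members (9.51%) and 1468 lower (9.38%). With no barcode left out, 2833 of 17772 were higher (15.9%) and 1655 lower (9.31%). The share of calls that were higher thus went from 63.1% to 50.4% when barcodes of other classes were left out. Both comparisons called 1187 genes higher, 41.9% of the longer and 79.7% of the shorter list. The rule genes were left out of all these counts. The shares of 9.51% and 9.38% are those to set beside the list counts below, unless another comparison is named.

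The values that chose the members are given as a description. Slc4a10 counts ran from 2 to 53 UMIs in members with a median of 8, and the summed level was 608 CPM in the 330 members and 3.27 CPM in the 1410 others. At the lower edge, 49 members had exactly 2 Slc4a10 UMIs and 102 barcodes that met the other gates had 1. Ccn3 stood at 385 and 213 CPM in these groups, Fxyd5 at 673 and 329 CPM. Barcodes of other classes were left in here, so these sums cannot be set against those of the 330 members. Depth had a median of 9274 and a highest value of 199894 UMIs in the 49, and of 7827 and 184103 in the 102. At the collagen edge, 16 members between 20 and 25 per 10000 and 17 barcodes between 15 and 20 that met the other gates had similar levels of Ccn3 (2068 and 2039 CPM) and Fxyd5 (1882 and 1433 CPM). Ecrg4 was at 2856 and 2065 CPM and Foxp2 at 351 and 544 CPM. Mfap4, at 156 and 168 CPM, lay far below its level in the 330 members on both sides of this edge.

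Clustering of the collagen-gated barcodes on 2000 variable genes, with the rule genes left out, put 314 of the 382 members (82.2%) into a single cluster of 353 barcodes, 89.0% of which were members. Another 20 members fell into a cluster of 64 barcodes with a median of 3110.5 UMIs, whose leading genes were also Ecrg4, Fxyd5, Mgp and Ccn3. A further 19 fell into a cluster led by Igfbp5 and Igf2. The remaining members were scattered over clusters led by genes of glia, neurons, red cells, macrophages, endothelium or dividing cells.

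The 4 marker genes named for these cells besides Slc4a10 were all high in members. Ccn3, a secreted matricellular protein, had a lowest, median and highest level of 0, 8.17 and 78.7 UMIs per 10000 in single members, and of 0, 0 and 94.1 in others. Its summed level was 1304 CPM in members and 31.1 CPM in others, 42.0-fold higher (38.8 to 45.4). Mfap4, a microfibril-associated glycoprotein, ranged from 0 through a median of 18.1 to 115 per 10000 in members and reached 83.3 in others with a median of 0. Summed, it stood at 2605 against 199 CPM, 13.1-fold higher (12.7 to 13.6). Ecrg4, which encodes a secreted peptide precursor, had a member median of 34.8 per 10000 and 3783 against 191 CPM, 19.8-fold higher (19.2 to 20.5). Foxp2, a forkhead transcription factor, had a member median of 10.1 per 10000 and 1100 against 135 CPM, 8.14-fold higher (7.78 to 8.51). The ranges overlapped for each marker, and for Ccn3 and Ecrg4 the highest single value was in an other barcode (94.1 and 183 per 10000, against 78.7 and 135 in members), but the medians of Ccn3, Mfap4 and Ecrg4 in others were 0. All 4 markers had a UMI in 247 of 330 members (74.8%) and 69 of 1410 others (4.89%).

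**Figure D1:**
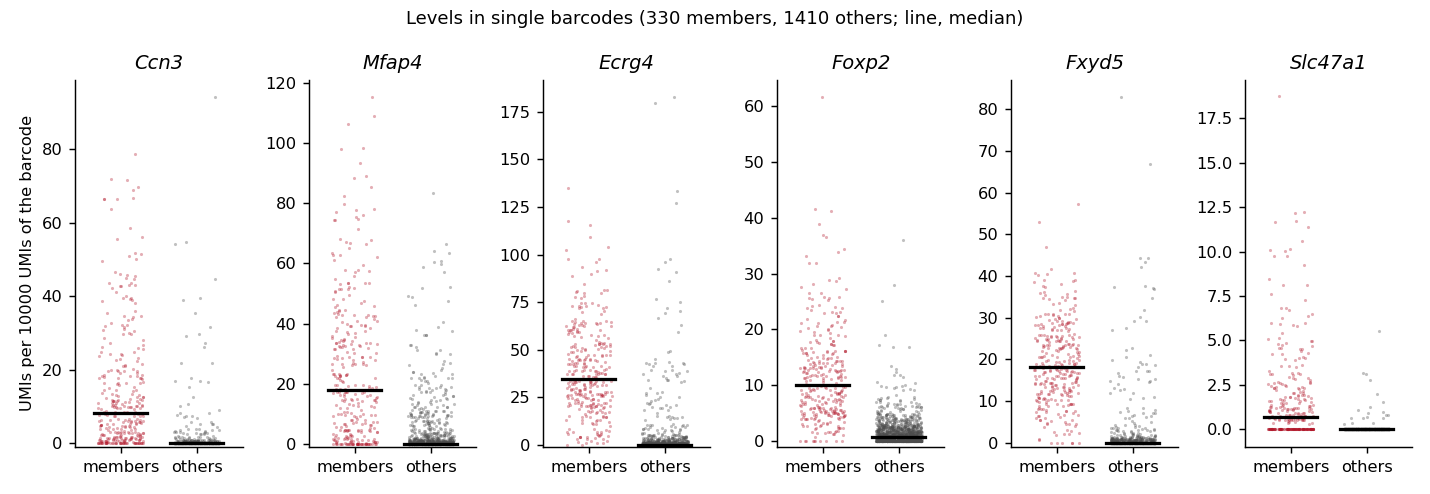
Level of 6 genes in each of 330 members (red) and 1410 other collagen-gated barcodes (grey), in UMIs per 10000 UMIs of the barcode; black lines are medians and points are spread sideways at random. Member medians of Ccn3 (8.17), Mfap4 (18.1), Ecrg4 (34.8) and Foxp2 (10.1) lie above those of the others, while the ranges overlap.

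To compare shares of cells at equal depth, barcodes were thinned to 5000 UMIs, which left out 22 of the 330 members and 89 of the 1410 others. Ccn3 then had a UMI in 76.3% of members and 4.47% of others, and Foxp2 in 97.4% and 40.0%. Before thinning the Ccn3 share was 87.9% in members and 10.0% in others, at median depths of 15247.5 and 14364.5 UMIs. In 577 thinned red-cell barcodes Ccn3 had a UMI in 2.60%, Ecrg4 in 6.76% and Fxyd5 in 4.68%. The red-cell barcodes themselves held up to 31 Slc4a10 UMIs and up to 19.3 collagen UMIs per 10000, so these shares are not those of free RNA alone. Slc47a1, at 40.6% of members against 0.757% of others, stood at 1.21% in red-cell barcodes.

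Places of the genes are given in the mouse annotation (GENCODE M21, build mm10), which held 32235 of the 32285 gene identifiers. Slc4a10 lies at chr2:62046462-62326730 on the plus strand, Ccn3 at chr15:54745702-54754039, plus, Ecrg4 at chr1:43730602-43742578, plus, and Foxp2 at chr6:14901349-15441977, plus. Mfap4 (chr11:61485431-61488900, plus) and the transporter genes Slc47a1 (chr11:61343401-61378345, minus) and Slc47a2 (chr11:61301631-61342860, minus) lie near each other on chromosome 11. All 3 were higher in members. Slc47a2 stood at 18.6 against 0.314 CPM, 59.2-fold higher (27.6 to 151); it was chosen after its values were seen.

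Among transporter genes, Slc47a1, an exporter of organic cations found in barrier epithelia and in arachnoid barrier cells, had 151 CPM in members and 1.48 CPM in others, 102-fold higher (72.1 to 149). It was the gene with the highest ratio among the 20 chosen by rule, all of which were higher with and without the barcodes of other classes. Of these 20, 5 are solute carriers: besides Slc47a1 they were Slc16a9 (319 against 11.8 CPM), Slc5a6, the sodium-dependent multivitamin transporter (176 against 5.25 CPM), Slc52a3, a riboflavin transporter (31.3 against 1.12 CPM), and Slc26a7, an anion exchanger (123 against 6.55 CPM). The 267 solute carrier genes compared, a family chosen after seeing these leaders, were higher in 53 cases and lower in 38. Over all genes 9.51% were higher and 9.38% lower. In the list of bicarbonate, pH and ion transport genes, 12 of 36 were higher and 6 lower. Atp1b1, a beta subunit of the sodium pump, stood at 679 against 31.2 CPM, 21.8-fold higher (20.1 to 23.7). Car13, a carbonic anhydrase, had 208 against 9.60 CPM, and Slc4a4, a sodium bicarbonate cotransporter related to Slc4a10, had 313 against 107 CPM. The median log2 ratio of this list was 0.32, against 0.02 over all genes compared.

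**Figure D2:**
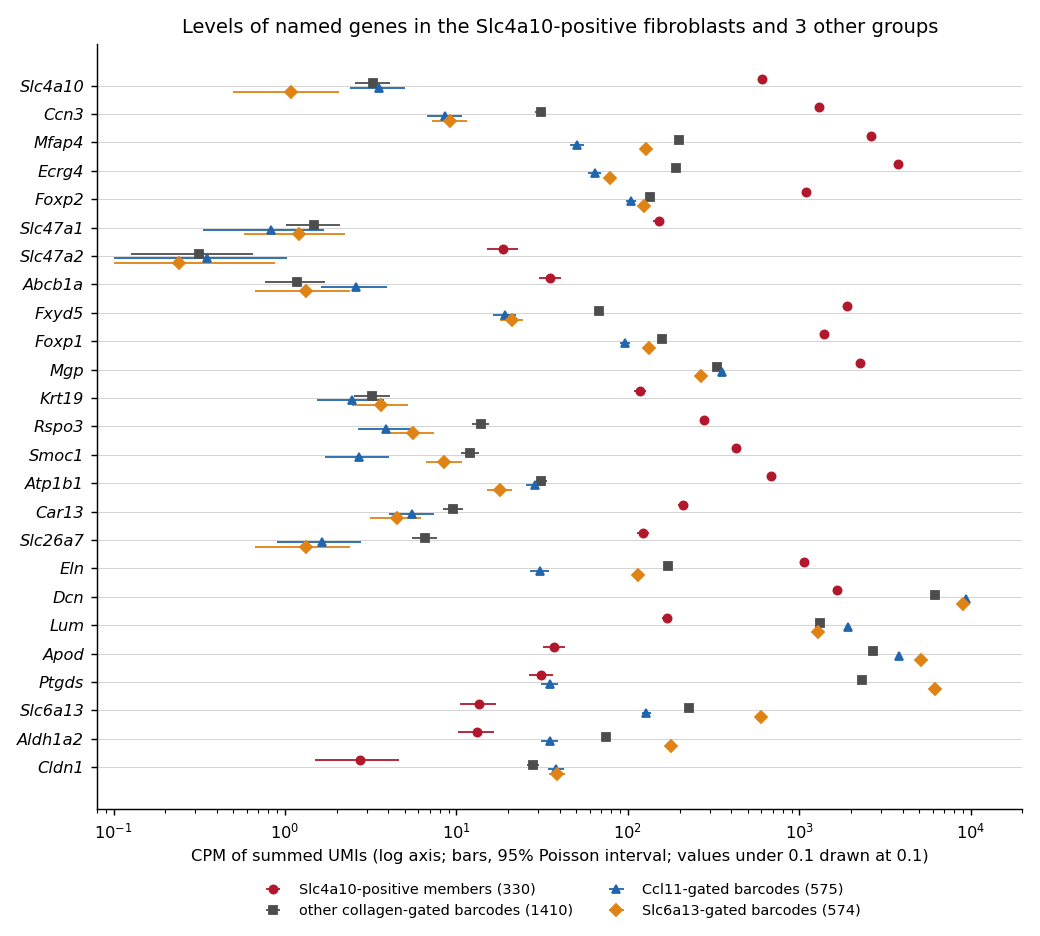
Summed level of 25 genes in CPM on a log axis, in 330 members, 1410 other collagen-gated barcodes, 575 barcodes with Ccl11 at 5 or more per 10000 and 574 with at least 2 Slc6a13 UMIs; bars are 95% Poisson intervals for counting error. Barcodes of other classes were left out of all groups but the 575. Members have the highest level for every gene from Slc4a10 to Eln and the lowest for those from Dcn to Cldn1.

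The label of sheath or meningeal fibroblasts was set beside lists for each layer. The lists were written with earlier results of these data known, so they are no independent check of the label. In the dura list, 6 of 7 genes were higher and none lower, with a median log2 ratio of 1.53. Fxyd5, a regulator of the sodium pump and of cell adhesion, had a member median of 18.2 per 10000 and 1902 against 67.7 CPM, 28.1-fold higher (26.6 to 29.7). Foxp1, a forkhead factor, had 1385 against 157 CPM, and Mgp, an inhibitor of calcification, 2247 against 331 CPM. Ndrg1, Dkk2 and Crabp2 were 2.88-, 2.78- and 2.46-fold higher, and Smoc2 stood at 162 against 274 CPM. In the list of the arachnoid barrier, 4 of 9 genes were higher and 1 lower. Besides Slc47a1 the higher genes were those of the efflux pumps Abcb1a (35.2 against 1.17 CPM) and Abcg2 (79.1 against 31.5 CPM) and of the cadherin Cdh1 (26.6 against 1.75 CPM). Abcg2 stood at 108 CPM in red-cell barcodes, above its level in members. Ptgds, the prostaglandin D synthase of the arachnoid, was 74.0-fold lower at 31.1 against 2304 CPM.

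Leptomeningeal genes were mostly lower, in 12 of 18 cases, with 2 higher and a median log2 ratio of -1.99. Slc6a13, a GABA and taurine transporter, stood at 13.5 against 228 CPM, Slc6a20a at 0.196 against 28.8 CPM, a single UMI in members, and Aldh1a2, which makes retinoic acid, at 13.1 against 74.6 CPM. The genes that were higher were Igfbp2 (2364 against 668 CPM) and the forkhead factor Foxd1 (741 against 231 CPM). Foxc1 stood at 198 against 101 CPM and missed the 2-fold limit. Set against the 574 Slc6a13-gated barcodes alone, where 9.9% of 14167 genes were higher and 10.2% lower, 12 leptomeningeal genes were lower and 1 higher. That group was itself chosen by a gene of this list. The 575 Ccl11-gated barcodes were compared with all 382 members, and no barcode of other classes was left out on either side. There 16.6% of 14839 genes were higher and 7.4% lower, and 6 leptomeningeal genes were higher and 7 lower. The sets thus differ from those of the Slc6a13 comparison.

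Of the layers of the nerve sheath, the endoneurial list had 6 of 8 genes lower and none higher. Apod, a lipid-binding protein, was 72.8-fold lower at 37.0 against 2693 CPM, where the others include Ccl11-high barcodes that the rule bars from the members. Wif1, a WNT inhibitor, had 2.74 against 82.1 CPM, and Plxdc1 2.54 against 66.9 CPM. The perineurial list was divided, with 4 of 10 higher and 3 lower. Krt19, a keratin, stood at 117 against 3.23 CPM, 36.4-fold higher (28.4 to 47.1), Perp, a desmosomal protein, at 62.4 against 4.13 CPM and Lypd2 at 70.5 against 7.72 CPM. Cldn1, the tight junction claudin that marks perineurium, was 10.2-fold lower at 2.74 against 27.9 CPM. In the list of epineurium and adventitia, 3 of 11 were higher and 3 lower, and Sfrp4 (81.8 against 10.1 CPM), Pi16 (27.4 against 5.88 CPM) and Sfrp2 (120 against 38.2 CPM) were the higher ones. The dura list had the highest share of higher genes among the layers, but arachnoid, perineurial and epineurial genes were higher too, so the cells are called by Slc4a10 here and not by a layer.

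**Figure D3:**
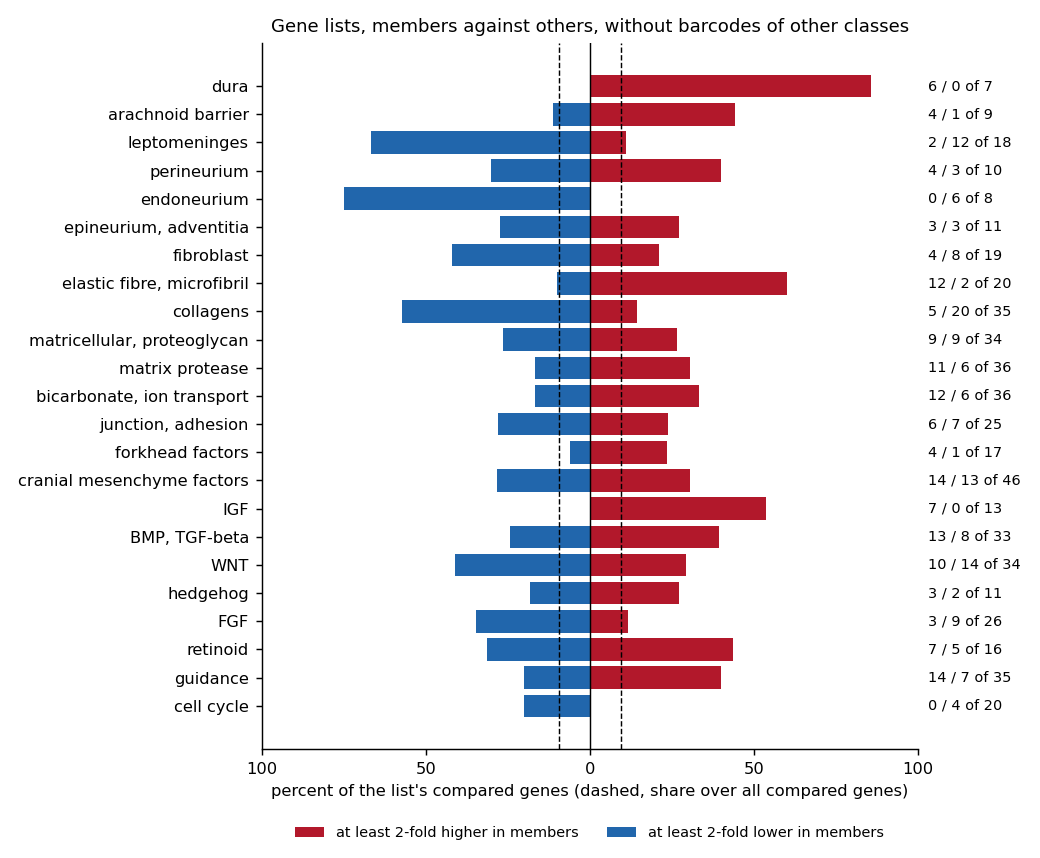
Share of the compared genes of 23 lists that were at least 2-fold higher (red) or lower (blue) in 330 members than in 1410 others, in percent; numbers give higher, lower and compared genes, and dashed lines the shares over all genes, 9.51% and 9.38%. Dura (6 of 7 higher) and elastic fibre (12 of 20 higher) stand at the right, endoneurium (6 of 8 lower) and leptomeninges (12 of 18 lower) at the left.

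Of 19 general fibroblast genes, 8 were lower in members than in the others, 4 were higher and the rest passed neither limit. Dcn, the proteoglycan decorin, stood at 1655 against 6160 CPM, Lum, lumican, at 169 against 1320 CPM, Pdgfra at 68.3 against 204 CPM and Vim at 516 against 1686 CPM. All 4 were also present in members well above red-cell barcodes except Vim, which was at 371 CPM there. The elastic fibre list went the other way, with 12 of 20 higher and 2 lower and a median log2 ratio of 1.46. Eln, elastin, had 1066 against 171 CPM, 6.25-fold higher (5.99 to 6.51). Mfap5 had 633 against 95.7 CPM, Fbln1 410 against 60.7 CPM and Loxl1, a crosslinking enzyme, 258 against 58.7 CPM. The rule keeps barcodes with high Ccl11 or bone genes out of the members but not out of the others. A cluster of 347 collagen-gated barcodes with Dcn, Ccl11, Apod and Lum among its leading genes held 0 members. The part of the Ccl11 limit in the lower levels of Dcn, Lum and Apod was not tested. The bone and cartilage list reached 20 per 10000 in 463 of the 1410 others (32.8%) and 26 of the 330 members (7.88%), and its part in the lower levels of collagens, Spp1 and Dlx5 was not tested. Of 35 collagen genes outside the rule, 20 were lower and 5 higher. Col8a2 (191 against 23.1 CPM), Col12a1 (1662 against 324 CPM) and Col14a1 (587 against 171 CPM) were among the higher ones. Col2a1, the cartilage collagen, stood at 9.20 against 851 CPM, Col11a2 at 5.28 against 305 CPM and Col22a1 at 1.17 against 126 CPM.

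Adamtsl3, a matrix glycoprotein related to ADAMTS proteases, had 269 against 7.27 CPM, 37.0-fold higher (31.4 to 43.9), and Smoc1, a calcium-binding modulator of BMP signals, 427 against 12.1 CPM, 35.4-fold higher (31.2 to 40.3). Among matricellular genes and proteoglycans, 9 of 34 were higher and 9 lower; Fmod, fibromodulin, had 204 against 35.1 CPM, and Thbs4 2.35 against 117 CPM. In the insulin-like growth factor list, 7 of 13 were higher and none lower. The proteases Pappa2 (33.3 against 1.44 CPM) and Pappa (58.7 against 7.36 CPM), which cut IGF-binding proteins, led it. Igfbp5 (1780 against 614 CPM) was 2.90-fold and the growth factor Igf2 (1941 against 856 CPM) 2.27-fold higher. In the list of cytokines and chemokines, 4 of 22 were higher and 10 lower, with Cxcl14 (47.8 against 4.35 CPM) and Cxcl13 (11 against 1.03 CPM) in front. In that of peptides and hormones, 4 of 11 were higher and none lower, among them Penk (240 against 45.8 CPM) and Nppc (201 against 26.5 CPM).

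The remaining genes chosen by rule were of mixed function. Galnt13, which starts O-linked glycans, was 55.8-fold higher (42.4 to 74.9) and Prdm6, a transcriptional regulator, 13.8-fold higher (12.0 to 15.9). Zfp804b, Mrln, Egfl6, Pgm5, Prmt8 and Scube3 were between 17.6-fold and 25.6-fold higher. Among the 10 lowest genes, Spp1, osteopontin, stood at 107 against 3864 CPM. Sbspon, Cdh19, S100a4, Pou3f2, C1ql3, Erbb3 and Vwa1 were also lower. Cdh19 and Erbb3 are known from Schwann cells and their precursors. With no barcode left out Erbb3 was 9.61-fold lower in members, against 2.34-fold without barcodes of other classes.

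Transcription factors of the head mesenchyme were divided, with 14 of 46 higher and 13 lower. Six2 had 85.5 against 11.4 CPM, Tbx15 152 against 23.2 CPM and Prrx2 289 against 54.8 CPM. Dlx5, a factor of the jaw and of bone, stood at 0.196 against 18.9 CPM, a single UMI in members. Twist1 was at 357 against 241 CPM. Of 14 Hox genes, which mark positions behind the head, 1 had enough UMIs to be compared. Of 17 forkhead genes other than Foxp2, 4 were higher and 1 lower, with Foxp1 and Foxd1 above as leaders.

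The series is on FGF and hedgehog signals in the forming tooth root, so both pathways were read in the members. Receptor components that bind hedgehog ligand were higher: Gas1 had 875 against 104 CPM, 8.42-fold higher (8.01 to 8.86), Boc 240 against 33.0 CPM and Cdon 92.0 against 8.12 CPM. Target genes of the pathway were not. Ptch1, receptor and target, was 4.12-fold lower at 45.6 against 188 CPM, and Gli1, a factor that rises with pathway activity, 2.38-fold lower at 8.61 against 20.5 CPM. Hhip, a target that binds ligand, stood at 21.1 against 18.9 CPM (ratio 1.12, 0.895 to 1.38). Over the list, 3 of 11 were higher and 2 lower. With no barcode left out Gli1 did not reach 2-fold, at a ratio of 0.811. In the FGF list, 3 of 26 were higher and 9 lower. Etv4 and Etv5, factors induced by FGF, stood at 0.783 against 36.8 CPM and 6.66 against 50.1 CPM, and Spry1, a feedback inhibitor, at 9.40 against 55.0 CPM. Fgfr2, the receptor deleted in the molars of the series, was at 211 against 139 CPM and Fgfr1 at 152 against 261 CPM, neither past 2-fold. Of 135 genes named here with a position, 30 overlap another annotated gene on the same strand, among them Fgfr2, Ptch1, Foxp1, Foxp2, Fxyd5, Adamtsl3 and Smoc1, and the sources used here do not say how such shared reads were assigned.

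In the WNT list, 10 of 34 were higher and 14 lower. Rspo3, a secreted amplifier of WNT signals, had 276 against 13.8 CPM, 20-fold higher (17.6 to 22.7), and the ligand Wnt11 35.8 against 4.76 CPM. Wnt5a stood at 20.4 against 96.6 CPM and the nuclear effector Lef1 at 3.52 against 60.8 CPM. In the BMP and TGF-beta list, 13 of 33 were higher and 8 lower. The ligands Tgfb2 (147 against 18.3 CPM), Gdf10 (183 against 44.7 CPM) and Bmp4 (68.3 against 18.2 CPM) were higher, as was Id1, a target of BMP signals (284 against 49.5 CPM), while Bmp2 stood at 1.96 against 15.8 CPM. Retinoid genes were higher in 7 of 16 cases and lower in 5. Rbp4, a retinol carrier, had 165 against 30.6 CPM and Dhrs3, which reduces retinal, 92.6 against 24.1 CPM, while Aldh1a3, which makes retinoic acid, had 2.74 against 55.2 CPM. Among axon guidance and neurotrophic genes, 14 of 35 were higher and 7 lower. The secreted repellents Slit3 (441 against 113 CPM), Sema3a (49.5 against 10.5 CPM) and Sema3f (33.9 against 7.31 CPM) were higher, and the receptor Nrp2 was lower (38.2 against 230 CPM).

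Of 25 junction and adhesion genes, 6 were higher and 7 lower. Gja1, connexin 43, had 892 against 197 CPM and the cadherin Cdh11 1479 against 233 CPM. Cdh5, the cadherin of endothelium, had 132 against 46.1 CPM, while Cldn5, the endothelial claudin, was at 0.783 CPM in members. Of the 6 endothelial markers 3 were lower and Cdh5 alone was higher. Of 7 mural cell markers 3 were higher, among them Notch3 (41.9 against 12.8 CPM), and 2 lower. Of 11 glial markers S100b alone was higher (171 against 48.5 CPM) and 3 were lower. Calca, a neuropeptide gene, went from 499 to 180 CPM in members when barcodes of other classes were left out, with a highest single member at 21.8 per 10000 and 22.8 CPM in red-cell barcodes. In the neuron list, 6 of 7 genes were higher with all barcodes. After barcodes were left out by the neuron, glia, macrophage, endothelium and mural lists, the counts of these same lists are set in part by that filter and are given as a description. How far neuronal RNA enters the Calca value was not tested.

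The summed cell cycle list reached 20 per 10000 in 16 of 330 members (4.85%) and 133 of 1410 others (9.43%). At 10 per 10000 the shares were 6.97% of members and 13.4% of others. The median level of the list was not lower in members, at 2.25 per 10000 against 1.90 in others. Of its 20 genes, 4 were lower and none higher, against 14 lower with no barcode left out. Mki67 stood at 31.9 against 58.0 CPM and Top2a at 48.3 against 84.4 CPM, neither past 2-fold. Genes that respond to cell dissociation were higher in 2 of 20 cases and lower in none, against 9.51% and 9.38% over all genes.

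The members were not uniform, and the markers themselves divided them. Across the 330 members the level of Ccn3 was inversely related to that of Mfap4 (Spearman's rho -0.49), while Ecrg4 and Fxyd5 went together (0.46) and Mfap4 and Foxp2 did so more weakly (0.35). These are descriptions over cells of 1 library that share depth and free RNA. The 308 members with at least 5000 UMIs were ordered by Mfap4 per 10000, and the 102 lowest were set against the 102 highest. Median Mfap4 was 1.55 and 48.9 per 10000 in these groups, and median Ccn3 23.5 and 4.01. Median depth was 14790.5 and 16543.5 UMIs, the mitochondrial share 2.90% and 2.70%, and globin 13.6 and 13.5 per 10000. Collagen of the gate had medians of 52.3 and 279 per 10000, so the Mfap4-low members lay nearer to the gate's limit of 20.

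**Figure D4:**
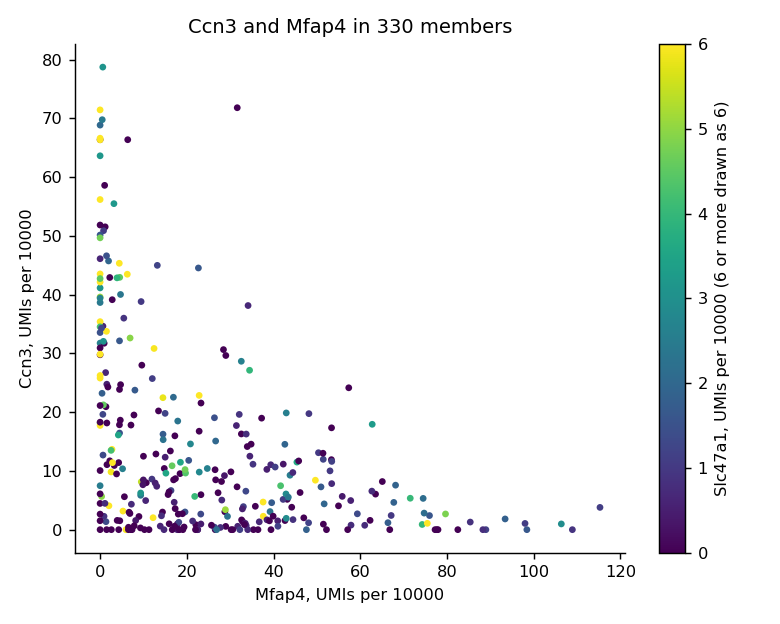
Ccn3 against Mfap4, each in UMIs per 10000, in 330 members, coloured by Slc47a1. Ccn3 reaches 78.7 per 10000 among the 102 members lowest in Mfap4, 71.8 among the middle 104 and 38.1 among the 102 highest. The medians of Ccn3 in these groups are 23.5, 6.35 and 4.01, and Spearman's rho over the 330 members is -0.49.

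After thinning to 5000 UMIs, 405 of 7112 genes were at least 2-fold higher in the Mfap4-low members (5.69%) and 295 lower (4.15%). Genes named here were chosen after their values were seen. Ccn3 had 2580 CPM in the Mfap4-low, 892 in the middle and 602 in the Mfap4-high members, 4.29-fold higher in the low group (3.78 to 4.87). Adamtsl3 went along, with 565, 208 and 96.1 CPM, as did Vim with 820, 319 and 149 CPM and Igfbp6 with 424, 142 and 74.5 CPM. F3, tissue factor, was 8.14-fold higher in the low group (5.21 to 13.3), at 351, 44.2 and 43.1 CPM, and Rfk, riboflavin kinase, 7.85-fold (4.39 to 15.2). Cxadr and Alcam, adhesion proteins of the immunoglobulin family, were 5.33- and 3.1-fold higher there. Slc4a4 had 531, 273 and 184 CPM, Crabp2 was 3.59-fold higher and Ndrg1 2.15-fold.

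Among genes higher in the Mfap4-high members, Eln had 331 CPM in the low, 985 in the middle and 1643 in the high group, 4.96-fold higher in the high group (4.20 to 5.88). Fmod had 25.5, 169 and 375 CPM, 14.7-fold (8.39 to 28.1). Mfap2, Bgn and Sparc, products that bind elastic fibres or collagen, were 3.95-, 3.82- and 2.90-fold higher, and Acan, the proteoglycan aggrecan, 5.27-fold. The imprinted genes Igf2 (1043, 2163 and 2580 CPM) and H19 (512, 1815 and 2312 CPM), which share a locus, were 2.47- and 4.52-fold higher, and Igf1 5.21-fold. Rbp4 had 33.3, 98.1 and 304 CPM. Of the other genes high in members, some differed less between these groups than Ccn3 and Adamtsl3. Ecrg4 was 1.55-fold and Foxp2 1.57-fold higher in the high group, Fxyd5 1.32-fold and Mgp 1.30-fold, and Foxp1 was at 1596, 1371 and 1451 CPM. Mfap5 and Fbln1, also of the elastic fibre list, did not follow Eln, with ratios of 0.825 and 1.15.

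**Figure D5:**
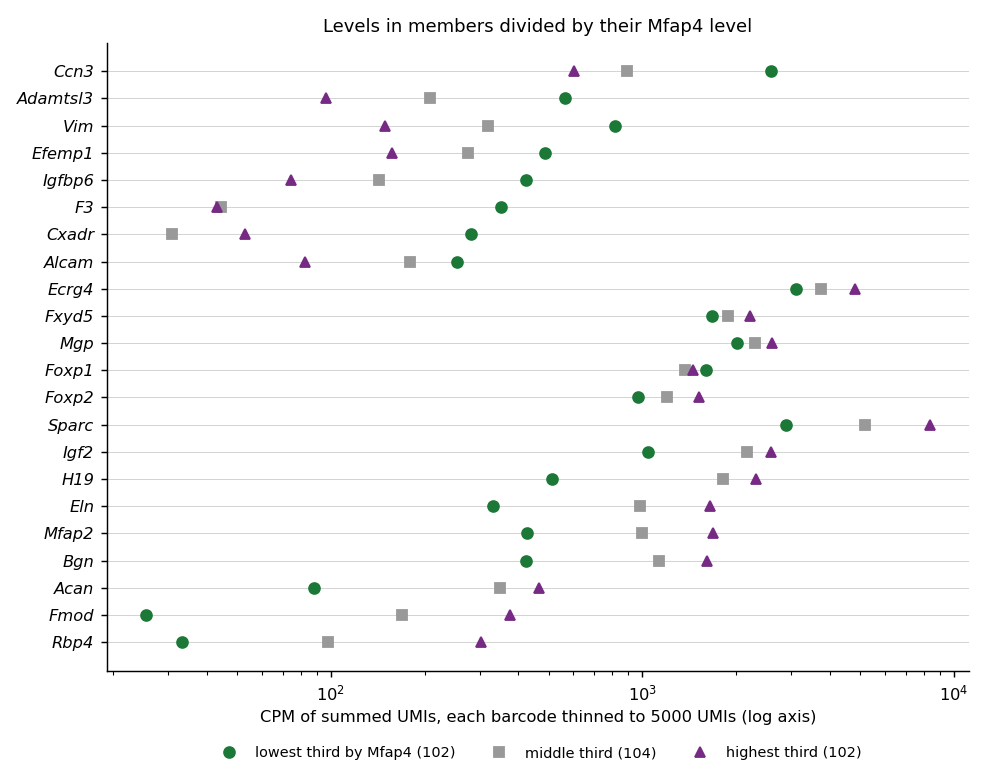
Level of 22 genes in CPM on a log axis in members ordered by Mfap4, each barcode thinned to 5000 UMIs: the 102 lowest (green circles), the middle 104 (grey squares) and the 102 highest (purple triangles). Genes from Ccn3 to Alcam are highest in the Mfap4-low members, genes from Sparc to Rbp4 in the Mfap4-high members, and Ecrg4, Fxyd5, Mgp, Foxp1 and Foxp2 lie close together.

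Slc47a1 gave another division, by detection and over all thinned members. Its counts cannot be set directly against those of the outer Mfap4 groups. Of the 308 thinned members 125 had a Slc47a1 UMI and 183 had none, which at this depth does not show that the gene was silent. Of 8512 genes, 176 were higher in those with a UMI (2.07%) and 154 lower (1.81%). Penk stood at 467 CPM with and 80.9 CPM without, 5.78-fold higher (4.46 to 7.56). Adamtsl3, Galnt13, Crabp2, Abcg2, Cdh1, Perp, Lypd2 and Slc47a2 were between 2.03- and 3.76-fold higher. Sfrp2 had 41.6 CPM with and 183 CPM without. Summed over barcodes, markers of other cells were also lower in members with a Slc47a1 UMI. The globin gene Hbb-bs stood at 4198 against 9187 CPM and Hba-a1 at 870 against 2393 CPM. The mast cell genes Cpa3, Cma1, Mcpt4 and Tpsb2 had 0, 1, 0 and 0 UMIs with, against 60, 52, 41 and 33 without, and the macrophage gene Lyz2 had 1 against 38. Of contractile genes, Tagln had 52.8 against 199 CPM, and of cycling genes Ube2c had 4.8 against 57.9 CPM, Birc5 9.60 against 64.5 CPM, Mki67 9.60 against 32.8 CPM and Top2a 20.8 against 52.5 CPM. All genes of these sentences were chosen after their values were seen, and their part in the split was not tested. How many barcodes carried these sums was not counted, so they do not show a difference shared by the members without a UMI. Mast cells were in none of the lists used to leave barcodes out. Before thinning, globin in single members without barcodes of other classes had a median of 14.4 and a highest value of 6092 per 10000. Mfap4 itself differed little, at 2746 and 2510 CPM, and Ccn3 was 1.66-fold higher (1.52 to 1.81). Penk was also 2.36-fold higher in the Mfap4-high than in the Mfap4-low members (1.8 to 3.12), opposite to the direction of Ccn3 and Adamtsl3.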

How the data were processed

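The 10x single-cell library of the trigeminal ganglion was used as the filtered matrix the authors deposited, whose values are raw UMI counts per gene and barcode (149040354 UMIs, 32285 genes). Cell Ranger is given as version 3.1.0, with build mm10, per the submitters' processing notes and as 7.0.1 per the file headers. Members and gene lists were chosen with earlier results of these data known.

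Counts were summed over barcodes and divided by total UMIs (CPM), with exact Poisson intervals for levels and exact conditional binomial intervals for ratios. These cover counting error only. A call needed 20 UMIs over both sides and a 2-fold difference. Genes named were the given markers, the 20 highest and 10 lowest by ratio with a UMI in at least 25% of the members or of the others, up to 3 per list in each direction, and Ptch1, Gli1 and Hhip. Dcn, Pdgfra, Vim beside the Mfap4 division, Igf1, Igf2, H19, Ptgds, Slc4a4, Fgfr1, Fgfr2, Etv5, Spry1, Lef1, Wnt5a, Bmp4, Id1, Tbx15, Prrx2, Twist1, Mki67, Top2a, Cdh1, Ndrg1, Dkk2, Crabp2, Smoc2, Aldh1a2, Col14a1, Igfbp5, Igfbp6 and all other genes of that division were named after their values were seen. Barcodes were clustered by the Leiden method (30 components, 20 neighbours, resolution 1). Python 3.11.15, numpy 2.4.6, scipy 1.17.1, pandas 2.3.3, scanpy 1.11.5 and leidenalg 0.10.2 were used, and the calling step was tested on simulated data. A few genes that the rule names are not reported here. There was 1 library, so no barcode is shared between libraries.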

Additional observations from a re-analysis of the deposited data

Results flagged for a closer look

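Outside the collagen gate, 125 kept barcodes had at least 2 Slc4a10 UMIs, a signal in barcodes that no call of higher or lower genes used. The 125 had a median of 63386 UMIs, and neuron genes reached 20 per 10000 in 83 of them. The 17 barcodes given above for the collagen edge are among the 125. Summed over the 125, Slc4a10 stood at 110 CPM (900 UMIs), Ccn3 at 197 CPM, Fxyd5 at 153 CPM, Foxp2 at 101 CPM and Slc47a1 at 24.1 CPM.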

How the results depend on the processing

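The planned comparison of 382 members with 5101 others gave 2833 genes higher in members and 1655 genes lower in members. The count of genes higher in members was 1489 without barcodes of other classes (chosen after seeing the data), 1435 when globin-rich barcodes were left out too, which left 224 members, 1863 with every barcode thinned to 5000 UMIs, and 1402 against Slc6a13-gated barcodes (also chosen after seeing the data). The count of genes lower in members was 1098 against Ccl11-gated barcodes and 2961 with each barcode weighted equally. With equal weights 47.2% of calls were higher, against 63.1%. Members numbered 301 to 484 under the other rules tried. Against Ccl11-gated barcodes the ratios of Pou3f2 and Erbb3 turned to 1.14 and 1.29, and against Slc6a13-gated barcodes that of Cxadr to 0.572. Divided at the median of Mfap4 in place of the outer groups, 355 genes were higher and 178 lower in the Mfap4-low members, and Ccn3 was 2.75-fold higher. The cause of these shifts was not tested. No paired analysis was possible because the values come from 1 library and no test. Genes with few UMIs, such as Slc47a2 in single cells, are limited by depth.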
